A study of Mus musculus with 2 samples.

Results

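Id1, Id2 and Id3 encode Id proteins, and Tcf3 and Tcf12 encode E proteins, which the Id proteins block. These 5 genes were chosen by name from the 22020 gene symbols of the deposited table, with the transcript of the highest mean level standing for each gene. All 5 were found and all 5 passed the filter of a mean of at least 1 RPKM (reads per kilobase of transcript, scaled by the read total), as did 11356 genes in all. The RNA came from LSK cells of C57BL/6 mice aged 8 weeks, sorted by the absence of lineage markers and the presence of c-Kit and Sca-1. Blood stem cells and early multipotent progenitors lie in this fraction. One genotype was p53 KO, in which the tumour suppressor gene Trp53 is deleted. The other was Utx/p53 DKO, in which Kdm6a (Utx), an X-linked histone demethylase gene, is deleted as well, so by their labels both groups carry the p53 deletion. How the alleles were deleted, the sex of the mice and how many were pooled are not given in the sources used here. There was 1 library per genotype, so no difference has a replicate check and no p-value is given. The 95% intervals come from the reads and cover counting error only.

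E proteins are basic helix-loop-helix (bHLH) transcription factors that bind the E-box as dimers with each other or with tissue-restricted partners such as Tal1. Id proteins have the helix-loop-helix but lack the basic region, so they pair with E proteins and keep them off DNA. In blood cells E proteins are known for starting the lymphoid and B cell programmes, and Id2 is known for innate lymphoid, NK and some myeloid and dendritic cells. By RefSeq names, Tcf3 is E2A, the source of the E12 and E47 proteins, Tcf12 is HEB and Tcf4, the remaining E protein gene, is E2-2. All transcripts listed as Tcf3 carried RefSeq accessions of E2A, not of the unrelated Tcf7l1, which once shared that name.

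The Id2 and Id3 promoters are shown because these genes, nearly level in the p53 KO library, differed in opposite directions. Both are the 250 bases before the transcription start, from RefSeq on build GRCm38.p6, while the reads were placed on mm9. The Id2 window is chr12:25096093-25096342 on the minus strand and the Id3 window is chr4:136143572-136143821 on the plus strand. Capitals mark the E-box (CANNTG) and the Smad motifs GGCGCC and CAGAC, searched on both strands.
Id2: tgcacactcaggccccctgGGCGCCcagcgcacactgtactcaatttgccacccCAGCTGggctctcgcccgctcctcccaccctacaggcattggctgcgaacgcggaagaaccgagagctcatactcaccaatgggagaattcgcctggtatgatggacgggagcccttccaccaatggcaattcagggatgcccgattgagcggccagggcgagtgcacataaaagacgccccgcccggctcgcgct
Id3: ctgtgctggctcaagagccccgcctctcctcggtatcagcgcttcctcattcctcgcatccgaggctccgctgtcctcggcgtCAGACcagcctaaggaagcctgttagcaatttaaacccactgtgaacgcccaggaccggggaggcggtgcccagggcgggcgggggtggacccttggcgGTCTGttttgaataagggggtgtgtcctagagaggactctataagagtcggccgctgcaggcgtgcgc
The Id2 window held 1 E-box, CAGCTG, that starts 196 bases before the transcription start, and 1 GGCGCC at 231 bases. It also held 3 matches to CCAAT, which are not in capitals. The Id3 window held 2 matches to CAGAC, at 167 and 68 bases before the start, and no match to the other 3 motifs. No matches overlapped, and both windows were 62.8% G and C. Among 32851 mouse promoter windows of the same length, 66.2% held an E-box, 42.2% CAGAC, 33.8% CCAAT and 9.59% GGCGCC. These matches describe letters only, since no binding was measured here.

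As facts of the whole series, the libraries held 17088105 (p53 KO) and 19926294 reads (DKO). Kdm6a was at 5.32 against 1.26 RPKM (p53 KO first here and in every pair of values that follows), from 479 against 132 reads. Trp53 was at 19.4 against 12.9 RPKM, from 587 against 456 reads. The deleted exons are not given, so reads of the whole transcript do not check either deletion fully. A gene was called higher or lower where log2(RPKM + 1) differed by 2-fold or more between libraries. By this rule the DKO library had 750 higher and 1528 lower genes, 6.6% and 13.5% of all measured genes. The log2 difference of a measured gene had a median of -0.24. With the normalization constants of the file header, which raise the DKO values by 0.60 on the log2 scale, 1873 were higher and 712 lower. The split was 949 against 1251 with upper-quartile scaling and 498 against 2709 with equal totals. Shares and ratios within a library, which no scaling changes, are therefore given beside the differences. Of 10 marker genes of LSK cells 8 were lower, with Kit, of the sort gate, at 64.2 against 16.0 RPKM and Ly6a, which encodes Sca-1, at 254.9 against 281.4 RPKM. All 12 granulocyte and monocyte markers were higher, and their summed level was 5873 against 70053 RPKM. In bulk RNA, fewer cells of a type and less RNA per cell cannot be told apart, and the part of this shift in the results below was not tested.

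The Id genes went in opposite directions in the DKO library: Id1 and Id2 were higher and Id3 was lower. Neither E protein gene of the set passed the 2-fold rule. So 2 of the 5 genes were at least 2-fold higher, against 6.6% of all measured genes, and 1 was at least 2-fold lower, against 13.5%. A 3-fold rule called 1 gene higher (3.25% of all genes) and 1 lower (4.34%), and a 1.5-fold rule 2 higher (13% of all) and 2 lower (29.6%).

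Id2 was the most abundant of the 5 genes in both libraries, at 20.2 RPKM (440 reads) against 54.1 RPKM (1372 reads). The DKO value was the higher one, and its counting interval, 51.3 to 57.1 RPKM, did not meet that of the p53 KO library, 18.4 to 22.2 RPKM. The RPKM ratio was 2.67 (95% interval 2.40 to 2.98) and the log2(RPKM + 1) difference 1.38, above that of 95.9% of measured genes. By level, Id2 stood above 70.2% of measured genes without and 88.5% with the Utx deletion.

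Id3, which is induced by antigen receptor and TGF-beta superfamily signals, was at 17.9 RPKM (291 reads) against 2.11 RPKM (40 reads). The DKO library was the low one, and the counting intervals of both levels did not meet. The level was 8.48-fold lower (95% interval 6.08 to 12.1), with a log2 difference of -2.60, and only 0.5% of measured genes had a lower difference. By level, Id3 stood above 67.4% of measured genes in one library and 17.7% in the other.

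Id1, a target gene of BMP signalling, was scarce in the p53 KO library, at 0.835 RPKM from 13 reads. It was at 5.51 RPKM from 100 reads in the DKO library, which is higher but still far under Id2. The ratio was 6.60, and the few reads left its interval wide, at 3.69 to 12.8. Its log2 difference was 1.83, above that of 97.6% of measured genes, and the pseudocount lowers this value most for so scarce a gene. By level it stood above 40.4% of measured genes in the DKO library. It passed the filter only through that library, so its place in the p53 KO library, above 1.7%, was set by the filter. The filter bears on the 97.6% in the same way. Id4, the fourth family member, failed the filter, with 0.317 RPKM (9 reads) against 0 reads. With a floor of 3 reads in the DKO library, Id4 was at least 3.50-fold lower, a bound that leaves out the counting error of its 9 reads. By the exact 95% interval of the counts it was at least 2.30-fold lower.

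**Figure D1:**
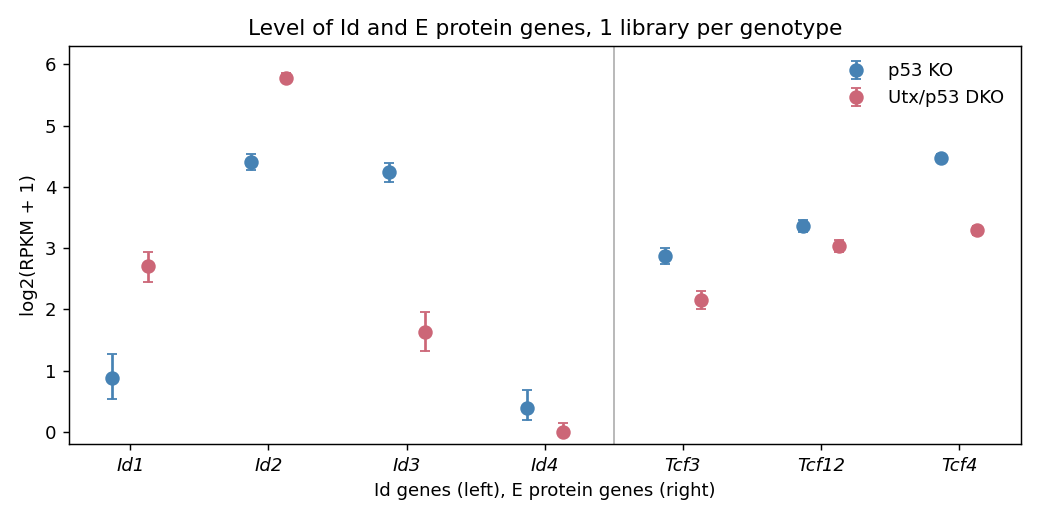
Levels of the Id genes (left) and E protein genes (right) as log2(RPKM + 1), 1 point per library, with bars for the 95% Poisson counting interval. Id1 and Id2 lie higher in the DKO library, Id3 lies lower, and Tcf12 is the gene whose 2 points lie closest among those with a mean of at least 1 RPKM.

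Tcf12 differed least of the 5 genes, at 9.25 RPKM (744 reads) against 7.22 RPKM (677 reads). The ratio was 0.780 (95% interval 0.702 to 0.867) and the log2 difference -0.32, close to the all-gene median of -0.24. With the constants of the file header its difference was 0.22, so its direction depended on the scaling. By level it stood above 49.0% of measured genes in one library and 47.7% in the other.

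Tcf3 was at 6.32 RPKM (357 reads) against 3.43 RPKM (226 reads). It was lower in the DKO library without reaching the 2-fold rule: the ratio was 0.543 (95% interval 0.458 to 0.643) and the log2 difference -0.72. With the constants of the file header the difference was -0.24. Tcf3 stood above 37.7% and then 28.3% of measured genes by level, and 23.0% of measured genes had a lower difference.

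Tcf3 was the only gene of the 5 with several transcripts listed, and they fell into groups by which of a pair of alternative exons they contain. In GENCODE M21, 5 of the 8 contain one exon of 224 or 227 bases and 3 contain another of 236 bases. Alternative exons of this gene are known to give the E12 and E47 proteins, and which exon belongs to which protein was not assigned here. Transcripts with the first exon held 354 to 357 reads against 226. Those with the other exon held 319 against 228 reads. So the groups of transcripts differed in reads in the p53 KO library and hardly at all in the DKO library. The log2 differences were -0.72 to -0.71 for the first group and -0.58 to -0.57 for the other. Most reads are shared by all 8 transcripts, so these counts do not give the level of either protein form.

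Tcf4, known as the master factor of plasmacytoid dendritic cells, was the most abundant E protein gene in both libraries. It was at 21.3 RPKM (2593 reads) against 8.79 RPKM (1250 reads). Of the 3 E protein genes it was the one that passed the 2-fold rule, with a level 2.42-fold lower (95% interval 2.26 to 2.59) and a log2 difference of -1.19. It no longer passed with the constants of the file header (-0.63), after centring on the all-gene median (-0.95) or with a pseudocount of 5 RPKM (-0.93). The authors' deposited table gave log2 fold changes of 3.23 for Id1, 2.02 for Id2, -2.45 for Id3, -0.28 for Tcf3, 0.24 for Tcf12 and -0.67 for Tcf4, on the scale with those constants. In the authors' deposited table the GFOLD value, a cautious log2 fold change, was 2.33 for Id1, 1.84 for Id2, -1.93 for Id3, 0 for Tcf3 and 0.07 for Tcf12. It was -0.56 for Tcf4 and 0 for Id4.

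Within each library the makeup of the Id family differed. In the p53 KO library Id2 made up 51.6% and Id3 45.5% of the summed RPKM of the 4 Id genes. In the DKO library Id2 made up 87.7%, Id1 8.92% and Id3 3.41%. Id2 and Id3 were thus near equal in one library and far apart in the other. The level of Id2 over Id3 was 1.13 (95% interval 0.975 to 1.32) in the p53 KO library, an interval that includes equal levels, and 25.7 (18.8 to 36.1) in the DKO library, a 22.7-fold change of the ratio (15.9 to 32.9). Id1 was 21.4-fold under Id3 in the p53 KO library (12.3 to 40.7) but 2.62-fold over it in the DKO library (1.80 to 3.87), so their order was reversed.

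The E protein family kept its order, Tcf4 over Tcf12 over Tcf3, in both libraries. Of the family's summed RPKM, Tcf3 held 17.2% against 17.7%, Tcf12 25.1% against 37.1%, and Tcf4 57.7% against 45.2%. The share of Tcf12 was thus larger in the DKO library and that of Tcf4 smaller. Relative to Tcf3, Tcf12 stood 1.46-fold higher (95% interval 1.29 to 1.66) in the p53 KO library, and with Utx deleted it stood 2.10-fold higher (1.81 to 2.46).

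Set against each other, the 4 Id genes summed to 39.3 RPKM and the 3 E protein genes to 36.8 RPKM in the p53 KO library. In the DKO library the sums were 61.7 and 19.4 RPKM. The summed Id level was thus 1.07 times the summed E protein level in one library and 3.18 times in the other. Most of the DKO sum was Id2: its level over Tcf12 went from 2.19 (1.94 to 2.47) to 7.50 (6.83 to 8.23), and that of Id3 over Tcf12 from 1.93 (1.68 to 2.22) to 0.292 (0.207 to 0.402). These are transcript ratios and do not give the amounts of protein or of dimers.

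**Figure D2:**
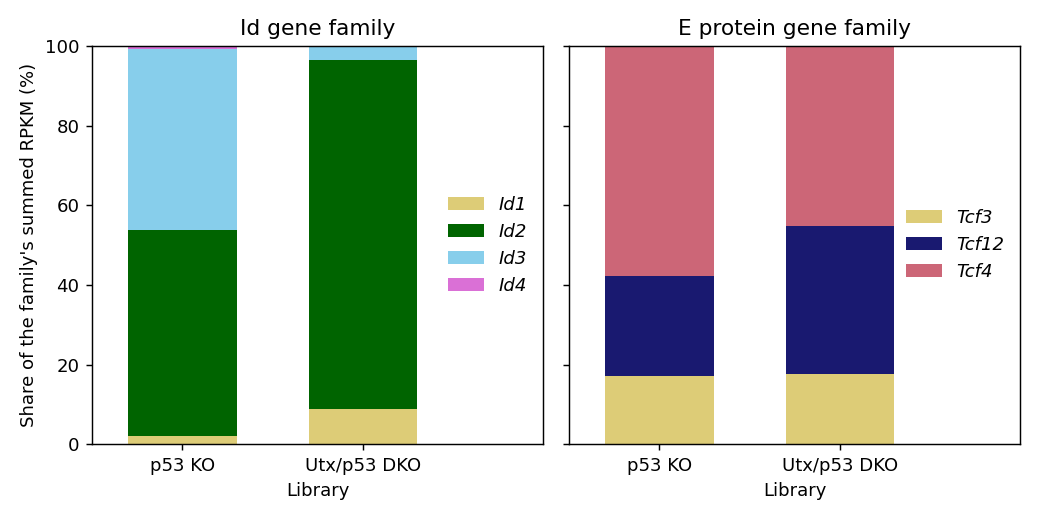
Share of each gene in the summed RPKM of the 4 Id genes (left) and the 3 E protein genes (right), 1 bar per library, each to 100%. Id3 takes 45.5% of the Id sum without and 3.41% with the Utx deletion, while Tcf3 keeps a like share of the E protein sum (17.2% and 17.7%).

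The direction of Id1, Id2 and Id3 was the same under each of the 5 scalings computed, and so was that of Tcf3. The difference of Id2 lay between 1.01 and 1.97, that of Id3 between -2.85 and -2.17, and that of Id1 between 1.52 and 2.35. Tcf3 lay between -1.01 and -0.24, and with equal totals, where 2709 of all measured genes were lower, it passed the 2-fold rule. Tcf12 lay between -0.64 and 0.22, on both sides of no difference.

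**Figure D3:**
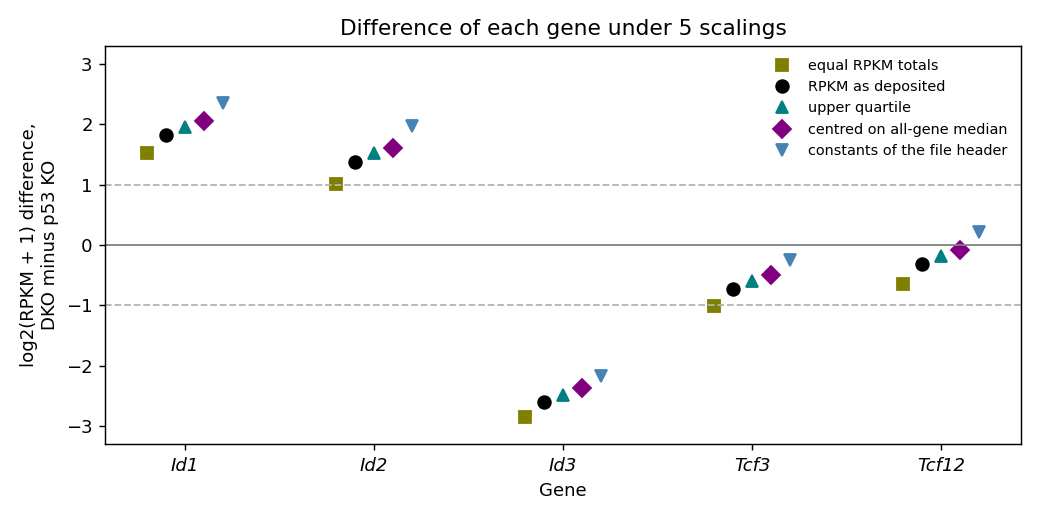
Difference of each gene on log2(RPKM + 1), DKO minus p53 KO, under 5 scalings of the same values. Dashed lines mark 2-fold, and the points of Id3 all lie under the lower line, from -2.85 to -2.17, while those of Tcf12 lie on both sides of 0.

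The genes lie on different chromosomes, so neighbouring genes were looked at for each by their GRCm38 order, a comparison chosen after the data were seen. Id1 is on distal chromosome 2, where of the 20 nearest measured genes 8 were at least 2-fold lower and 1 was higher, beside 13.5% lower and 6.6% higher among all measured genes. The median log2 difference of those 20 was -0.95. The 846 measured genes of chromosome 2 had a median of -0.63. Id2, on chromosome 12, had 0 of 20 neighbours past the 2-fold rule in either direction (median -0.21). The 20 neighbours of Id3 on chromosome 4 had a median of -0.17, those of Tcf3 on chromosome 10 -0.17 and those of Tcf12 on chromosome 9 -0.20. These 4 medians lay near that of all genes, but the counts varied: 2 lower and 3 higher around Id3, 1 lower and 0 higher around Tcf3, and 6 lower and 1 higher around Tcf12, each of 20. The genes next to Id3, Rpl11 and E2f2, had differences of 0.64 and -0.40.

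Most partners and cofactors of E proteins stayed within 2-fold, as did most measured genes, of which 13.5% were lower and 6.6% higher. Of 8 measured genes of the bHLH partner complex, 1 was lower, 0 were higher and 7 lay within 2-fold, with a median of -0.42. Gata1, the erythroid factor of that complex, was the lower one, at 10.4 against 2.31 RPKM. The dimer partners moved by less and apart: Tal1 was at 10.9 against 6.54 and Lyl1 at 8.48 against 13.9 RPKM. Gata2 was at 16.7 against 8.62 RPKM. Among 12 measured cofactors 1 was lower, Cbfa2t2, a corepressor of the ETO family, at 17.7 against 5.51 RPKM. Its relative Cbfa2t3 was at 22.9 against 14.2, the acetyltransferase gene Kat2b at 4.75 against 7.76 and Hdac2 at 12.3 against 7.76 RPKM, all within 2-fold.

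Genes of the B lineage that E proteins are known to bind or raise were mostly lower in the DKO library. Of 16 measured, 14 were at least 2-fold lower, against 13.5% of all genes, and 1 was higher. Their median was -2.02. Dntt, the terminal transferase, was at 233.7 against 4.05 RPKM, Rag2, of the recombinase, at 10.3 against 0.0296 and Cd79a at 106.3 against 14.4 RPKM. Rag2 passed the filter only through the p53 KO library. The one that was higher was Igll1, a surrogate light chain gene, at 165.7 against 562.9 RPKM, and it is named after its value was seen. Markers of B cells moved the same way, with 7 of 7 measured lower and a summed level of 342.3 against 66.2 RPKM. Several genes stand in both lists, and the part of B lineage cells in these values was not tested.

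Of 8 measured T lineage genes 3 were lower, 1 was higher and 4 lay within 2-fold, with a median of -0.20, beside 13.5% lower and 6.6% higher among all measured genes. The homing receptor gene Ccr7 was at 7.97 against 0.610, Cd4 at 2.25 against 0.195 and Gata3 at 5.62 against 1.89 RPKM, while the chemokine receptor gene Cxcr4 was at 11.0 against 24.9 RPKM. Ccr7 and Cd4 passed the filter only through the p53 KO library. Of 6 measured T cell markers, a list that shares genes with this one, 2 were higher, 2 lower and 2 within 2-fold. Cd3d was at 4.31 against 16.2 and Cd3g at 8.07 against 20.2 RPKM. Lat, a lower one beside Cd4, was at 26.0 against 7.40 RPKM. Of 12 measured plasmacytoid dendritic genes tied to Tcf4, 7 were lower and 1 was higher (median -1.31), against the same all-gene shares. Siglech, a surface marker of those cells, was at 25.2 against 0.586, the ETS factor gene Spib at 9.94 against 0.666, Ly6d at 153.7 against 37.8 and Ccr9 at 7.44 against 1.60 RPKM. Siglech and Spib passed the filter only through the p53 KO library. The higher gene was Irf8, a factor of monocytes as well, at 49.6 against 123.5 RPKM, named after its value was seen.

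Upstream of the Id genes, few BMP or TGF-beta ligand genes were measured. Only 3 of 15 ligand and inhibitor genes passed the filter: Inhba, an activin subunit, was at 0.842 against 5.51, Fst, which encodes the activin inhibitor follistatin, at 0.751 against 12.3 and Tgfb1 at 1.59 against 1.58 RPKM. Inhba and Fst passed only through the DKO library, so the filter itself set their direction. Bmp2, Bmp4, Bmp6 and Bmp7 each stayed under the filter. For the receptors and Smads that carry the signal, the all-gene share of 13.5% lower is the background. Of 9 measured receptor genes 2 were lower, Acvr1b at 6.07 against 1.27 and Eng at 9.08 against 3.09 RPKM, and 0 were higher. Tgfbr1 was at 5.59 against 3.09 and Acvr1 at 1.60 against 0.687 RPKM. Of 10 measured Smads and modulators 3 were lower and 0 higher: Smad3, of the TGF-beta branch, was at 8.82 against 2.48, Smad5, of the BMP branch, at 23.5 against 9.53 and the corepressor Tgif1 at 53.9 against 24.8 RPKM. With so few genes these counts moved with the setting. With the constants of the file header 1 receptor and 1 Smad gene were lower, where 712 of all 11356 measured genes were. With equal totals 2 and 5 were lower, where 2709 of all were. After centring the counts were 2 and 1, with a pseudocount of 0.1 RPKM 3 and 4, and with a pseudocount of 5 RPKM 0 of either. No all-gene counts stand beside those last 3 settings. Skil, another corepressor of Smads, was at 11.3 against 5.17 RPKM. Smad6 and Smad7, inhibitory Smads that the pathway induces, both stayed under the filter.

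Other factors known to bind or regulate Id genes went both ways, with 4 higher, 3 lower and 6 within 2-fold of 13 measured (median -0.29). Among all measured genes 6.6% were higher and 13.5% lower. The myeloid factor gene Cebpa was at 2.35 against 15.1, the repressor gene Gfi1 at 3.97 against 14.4 and Nfil3, known to act before Id2 in innate lymphoid cells, at 3.67 against 11.99 RPKM. Myc was lower, at 108.0 against 22.7 RPKM. The 6 measured genes of Id protein stability all lay within 2-fold (median -0.05), with the deubiquitinase gene Usp1 at 36.7 against 39.7, its partner Wdr48 at 11.8 against 8.20, Usp33 at 4.33 against 3.71 and Fzr1 at 12.9 against 11.7 RPKM. Of 11 measured cell cycle genes 1 was higher and 2 were lower, counts near the all-gene shares of 6.6% and 13.5%. With the constants of the file header 3 were higher and 0 lower, where 1873 and 712 of all measured genes were. After centring 2 were higher and 2 lower. Cdk6 was at 17.4 against 58.7, Ccnd2 at 129.5 against 42.5 and Ccnd1 at 15.2 against 5.53 RPKM. Cdkn2c, an inhibitor of Cdk6, was at 9.21 against 16.4 RPKM. Cdkn1a, an inhibitor gene raised by E proteins and a p53 target as well, was at 44.0 against 39.6 RPKM, named after its value was seen.

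**Figure D4:**
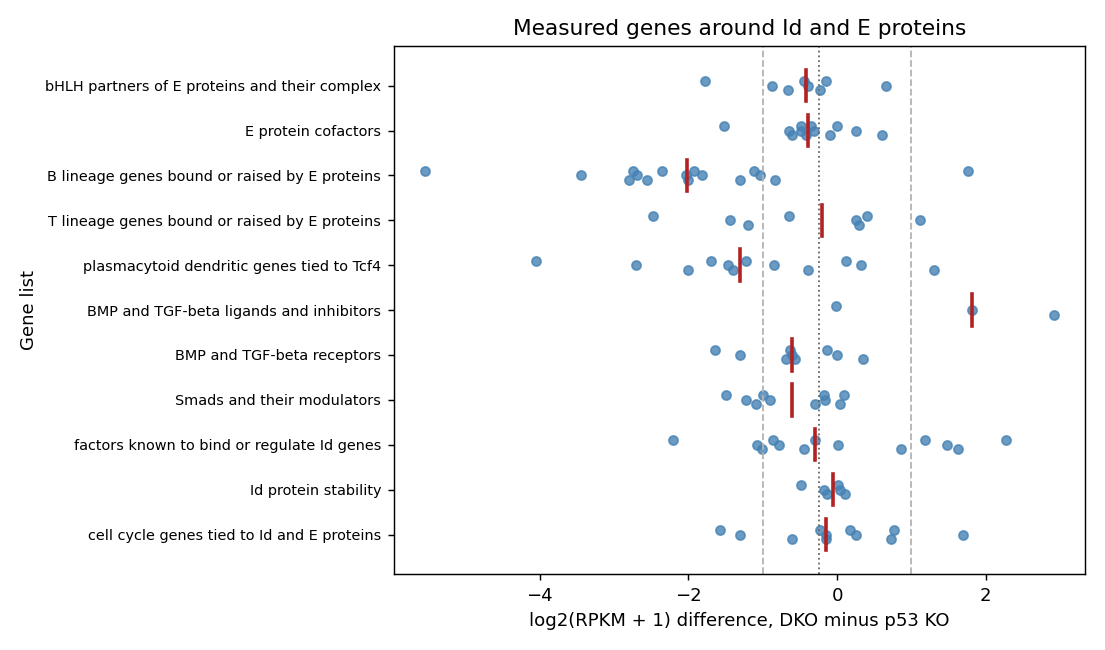
Difference of every measured gene of 11 lists on log2(RPKM + 1), DKO minus p53 KO, 1 point per gene, with a red line at the list's median. Dashed lines mark 2-fold and the dotted line the median of all genes (-0.24). The B lineage list lies furthest to the left (median -2.02).

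Markers of cells that use Id genes were set beside them. For each list the background is the all-gene share of 6.6% higher and 13.5% lower. Of 6 measured markers of NK and innate lymphoid cells, which depend on Id2, 5 were higher, among them Ncr1 at 2.60 against 9.40 RPKM, and Nkg7 was lower, at 229.1 against 99.6 RPKM. The summed level of that list, most of it Nkg7, was 251.2 against 172.1 RPKM. Of 8 endothelial markers, a cell type known for Id1 and Id3, 4 were measured, with Flt1 (1.1 against 13.1 RPKM) and Pecam1 (16.1 against 49.4 RPKM) higher and Emcn (10.4 against 2.65 RPKM) and Esam (16.6 against 3.79 RPKM) lower. The defining endothelial genes Cdh5 and Kdr were at 0.352 against 0.151 and 0.462 against 0.166 RPKM, low in both libraries. Of 7 measured macrophage markers 6 were higher, with a summed level of 52.6 against 227.1 RPKM. Erythroid markers were lower in 5 of 5 measured. None of these cell types' part in the Id values was tested beyond the marker levels given.

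The genes nearest in level to each of the 5 were found by the distance between their log2(RPKM + 1) values in the 2 libraries, which is a likeness over 2 points only. Inhba lay nearest to Id1, at a distance of 0.006, followed by Sec16b (0.040) and Gpr15 (0.050). Tcn2 (0.069), Ppic (0.099) and Clec2i (0.167) lay nearest to Id2, and Ncs1 (0.074), Tspan6 (0.088) and Scrn2 (0.123) to Id3. Zbtb1 (0.011), Mdc1 (0.041) and Zfp451 (0.045) lay nearest to Tcf3, and Ppm1f (0.015), Cox11 (0.033) and Elf4 (0.034) to Tcf12.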

How the data were processed

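RNA-seq of LSK cells was compared between 1 p53 KO and 1 Utx/p53 DKO library. Per the labels' protocols, 50 ng of total RNA was selected by oligo-dT, copied with a SMART cDNA kit, amplified and sequenced as 100-base pairs. No molecular identifiers are described, so amplification may affect scarce transcripts. TopHat2 2.1.0, bcl2fastq 1.8.4 and build mm9 are listed in the submitters' processing notes. No source used here states whether counting used strand, and reads from antisense genes may be included.

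The authors deposited RPKM values of 28344 transcripts, which gfold 1.1.4 wrote, per the file headers. Columns were matched to libraries by the order of names in the header. The authors' deposited table also gives log2 fold changes and a q-value that was 1 throughout (100% of transcripts). Differences were computed on log2(RPKM + 1), which understates low genes, with Python 3.11.15 and SciPy 1.17.1.

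Whole reads were recovered by searching the transcript length at which both RPKM values are whole reads and give the authors' log2 fold change. This had 1 solution for 97.3% of 24644 transcripts with reads. On 595 simulated transcripts it had 1 solution for 94.1%, and 100% of those were correct. From these reads came exact Clopper-Pearson intervals of ratios, exact Poisson intervals of levels and a floor of 3 reads. A change of a ratio between libraries has an exact conditional interval.

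The genes and lists (12 of pathways and 9 of markers) were chosen with earlier results of these data known. Named were the 5 genes, Id4, Tcf4, Kdm6a, Trp53, up to 4 measured genes per pathway list with the largest difference, and the 3 nearest genes in level. One gene that this rule names is not reported here. Marker genes, Igll1, Irf8, Cdkn1a, the neighbours on the chromosome, and genes given only as under the filter were named beyond that rule. Gene order used the GRCm38.p6 RefSeq table, which placed 97.6% of measured genes. That promoter table held entries for Id2, Id3, Tcf3 and Tcf12. Alternatives were other pseudocounts, scalings, filters, fold rules and transcripts.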

Additional observations from a re-analysis of the deposited data

How the results depend on the processing

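With no replicates, a value is called stable here when it stayed within its counting interval. With the constants of the file header the log2 differences were 1.97 for Id2, -0.24 for Tcf3 and 0.22 for Tcf12. With equal totals they were 1.01, -1.01 and -0.64, so that 2 of the 5 genes were lower, where 2709 of all 11356 measured genes were. After centring on the all-gene median, Id2 was at 1.61 and Tcf12 at -0.08. With a pseudocount of 5 RPKM, Id1 was at 0.85, Id3 at -1.69 and Tcf3 at -0.43, and 1 gene, Id2, was higher. The 3-fold rule also left 1 gene higher, Id1 (3.25% of all genes). So did the filter at a mean of 5 RPKM, which drops Id1 and leaves Id2, with no all-gene counts at that filter. The 1.5-fold rule gave 2 genes lower, Id3 and Tcf3 (29.6% of all genes). Over the pathway lists, 10 genes were higher and 37 lower of 109 measured. These are 9.17% and 33.9%, against 6.6% and 13.5% of all measured genes. Of the lower genes 14 stand in the B lineage list and 7 in the plasmacytoid dendritic list. All lists were chosen with earlier results of these data known, so these shares are no independent support. A pseudocount of 5 gave 6 higher and 20 lower genes over the lists, with no all-gene counts at that setting to set beside them. The constants of the file header gave 15 higher and 23 lower, where 1873 and 712 of all 11356 measured genes were called. The median of the B lineage list lay between -2.36 and -1.48 over all settings run. The median of the T lineage list changed sign, from -0.48 with equal totals to 0.28 with the constants and 0.40 under the filter of 5 RPKM, and with the constants so did the lists of Id stability (0.51), cell cycle (0.44), bHLH partners (0.13), E protein cofactors (0.11) and factors that regulate Id genes (0.26). For the 5 genes and the counts over all lists, the other settings run stayed within the counting interval or within 1.5 times the count, including all 8 Tcf3 transcripts and their sum, which counts shared reads repeatedly. No paired analysis was possible because each genotype has 1 library. Depth limits Id1 and Id4 most, with 13 and 9 reads in the p53 KO library.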
